A study of Mus musculus with 2 samples.

Results

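Cycling pre-B cells were selected on measured UMIs of 5 genes from 2 single-cell libraries of mouse long bone periosteum as barcodes with at least 2 UMIs of Cd79a, at least 2 UMIs of Mki67 and Top2a together, no UMI of Dntt, and no UMI of Ms4a1. A UMI (unique molecular identifier) marks 1 captured transcript, so that transcripts and not PCR copies are counted. Barcodes with at least 500 genes, at least 500 UMIs, and at most 10% mitochondrial UMIs were kept, and 958 of these 9169 cells met the rule. Library 1 gave 741 of 6276 kept cells (11.8%, exact binomial 95% interval 11.0% to 12.6%), and library 2 gave 217 of 2893 (7.50%, 6.57% to 8.52%). The intervals do not overlap. They cover counting error and not the choice of cells in the sort. The libraries shared 8 cell barcodes over all barcodes and 0 among cycling pre-B cells.

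The libraries are replicates 1 and 2 of a single condition, periosteal cells of femurs and tibias from wild-type C57BL6 mice at 4 weeks of age, digested with collagenase and sorted as negative for CD45, CD31, and Ter-119. How many mice went into a library is not stated in the sources used here, so p-values measure the spread between these 2 libraries, which may be technical. No treatment was compared. Comparisons were therefore made between classes of cells within the same 2 libraries, with resting pre-B cells (at least 1 UMI each of Cd79a and Rag1, none of Dntt, Ms4a1, Mki67, or Top2a, 709 and 292 cells) and with cycling pro-B cells (at least 1 UMI each of Cd79a and Dntt, at least 2 of Mki67 and Top2a together, none of Ms4a1, 161 and 78 cells).

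B cells form from progenitors that rearrange the immunoglobulin heavy chain gene at the pro-B stage and a light chain gene at the pre-B stage. A heavy chain made in between pairs with the surrogate light chain, encoded by Igll1 and Vpreb genes, into the pre-B receptor. This receptor and the interleukin-7 receptor drive a burst of division, and the recombinase genes Rag1 and Rag2 are known to be turned down during it and turned up again once the large dividing pre-B cell becomes a small resting one.

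The label was checked against markers outside the rule. At least 3 of the 4 B-lineage genes Cd79b, Ebf1, Pax5, and Vpreb3 were detected in 97.0% of the cells of library 1 and 98.6% of those of library 2, and 10 and 0 cells had none of them. Of stromal cells of the same libraries (no Cd79a UMI, at least 10 of the collagen gene Col1a1) 0.806% and 0.464% had at least 3, although 65.3% and 69.1% of them had a UMI of Ebf1, which alone does not mark B-lineage cells here. A UMI of Il7r, the interleukin-7 receptor alpha chain (chr15:9505788-9530176, minus strand, GRCm38), was found in 84.2% and 83.9% of the cells, against 1.61% and 0.309% of these stromal cells, which should lack it. The stromal cells had a median of 21056 and 9832 UMIs, so they were deeper than the cycling pre-B cells in library 1 and of like depth in library 2. The cells thus carried markers of the B lineage. These markers do not tell the pre-B from the pro-B stage. In cycling pro-B cells a UMI of Cd79b was found in 96.3% and 98.7%, and of Il7r in 74.5% and 71.8%. The stage in the name rests on the gate, mainly on the lack of a Dntt UMI. The cycling pre-B cells also carried Ptprc, which encodes CD45, the antigen used to sort hematopoietic cells out. Ptprc reached 79.7 and 58.7 CPM (a gene's UMIs over all UMIs of the class and library, scaled to 1000000 UMIs) in cycling and 231 and 128 CPM in resting pre-B cells (log2 fold change -1.23 ± 0.44 SE, adjusted p 0.0781 and 0.000371 with the library as a block, but 0.79 above 0 per cell), and 61.0% and 47.5% of the cycling cells had a UMI of it, against 8.87% and 0.773% of stromal cells. The RNA count says nothing of CD45 protein on the surface at the sort.

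Mki67 (a chromosome-coating protein of dividing cells) and Top2a (the topoisomerase that untangles replicated DNA) chose the cells, and their values are a description. Library 1 held 700 CPM of Mki67 and 983 CPM of Top2a, and library 2 held 436 and 700 CPM. The 2 genes together had a median of 24 UMIs per cell in library 1 and 13 in library 2, so most cells lay far from the threshold. Just inside it, 20 and 14 cells had exactly 2 UMIs of the pair. Just outside it, 103 and 31 cells that met the other conditions had exactly 1, with 3651 and 4600 UMIs per cell at the median. Of all kept cells with at least 2 UMIs of the pair, 26.3% of 2814 in library 1 and 40.3% of 539 in library 2 were cycling pre-B cells. Cd79a, the immunoglobulin alpha signaling chain, stood at 855 and 1126 CPM in cycling and 2141 and 2212 CPM in resting cells, while the mean per cell was 14.6 and 15.5 UMIs in cycling and 7.26 and 8.12 in resting cells.

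**Figure D1:**
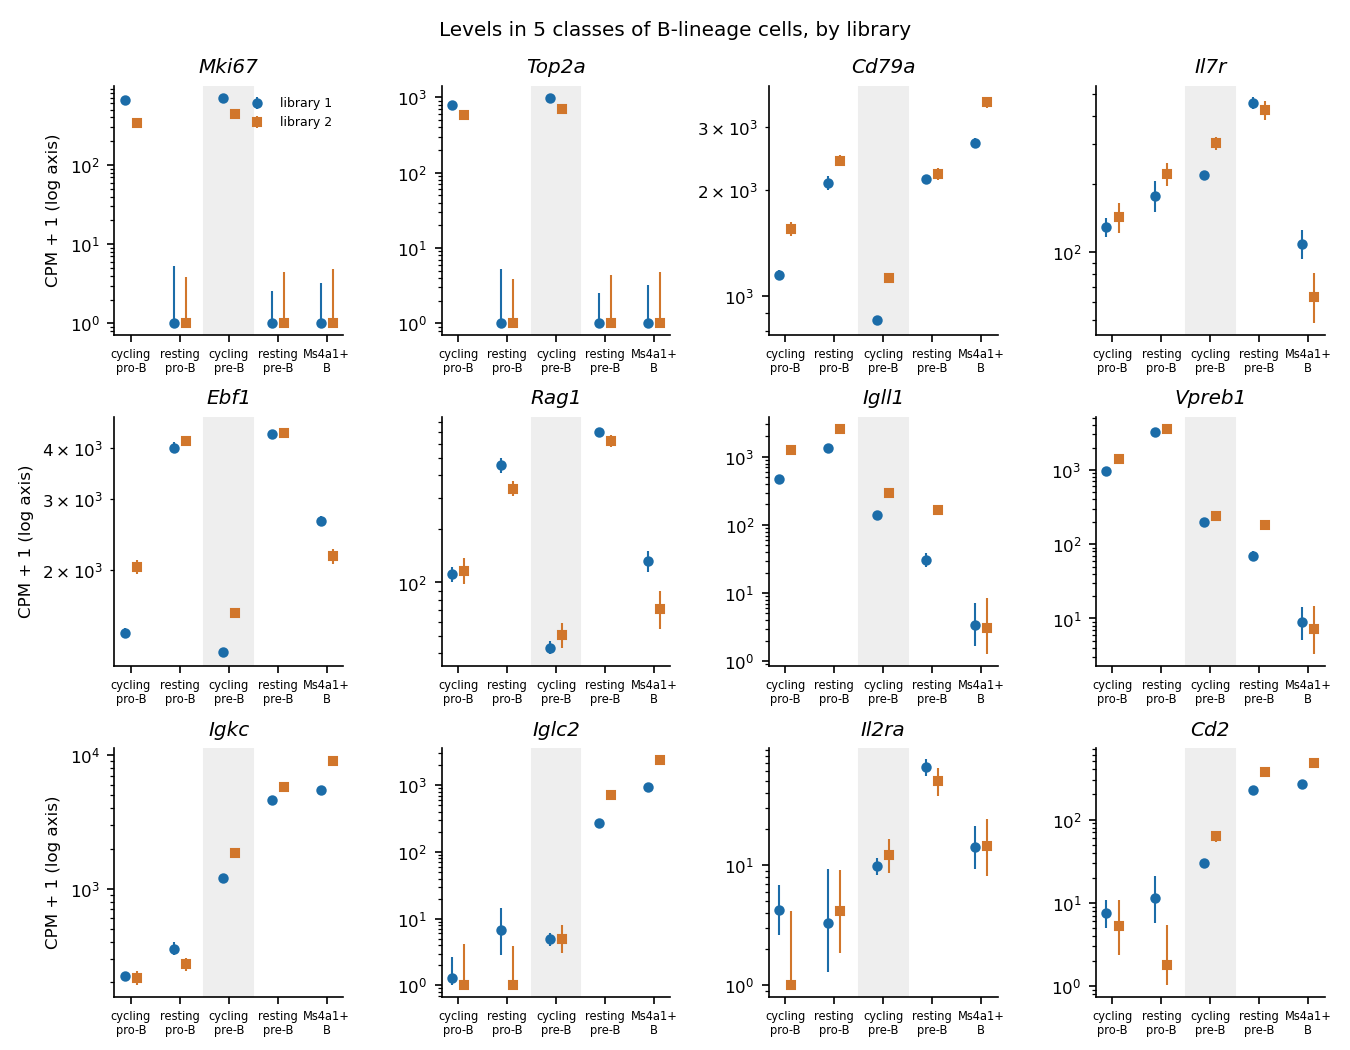
CPM plus 1 (log axis) of 12 genes in 5 classes of B-lineage cells, with library 1 as circles, library 2 as squares, exact Poisson 95% intervals as bars, and cycling pre-B cells on the grey band. Mki67, Top2a, Cd79a, and Rag1 are genes of the gates. In both libraries Igkc increased from cycling pro-B (220 and 214 CPM) over cycling pre-B (1199 and 1862) to resting pre-B cells (4604 and 5763), while as UMIs per cell the log2 fold change of cycling over resting pre-B cells was 0.33, and Iglc2 stood near 4 CPM in cycling pre-B cells.

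Cycling pre-B cells had about 3 times the captured UMIs of resting ones at the median. The median was 10636 UMIs and 3017 genes per cell in library 1 and 9560 UMIs and 2890 genes in library 2, against 3181 and 3352 UMIs and 1395 and 1469 genes in resting pre-B cells. The middle 50% of cells did not overlap between the classes, with quartiles of 7769 to 20018 and 7352 to 15195 UMIs in cycling cells and 2663 to 3732 and 2778 to 4048 in resting cells. Cells with many transcripts more easily pass a rule that asks for UMIs, so part of this difference can follow from the rule. At least 10 UMIs of 1 other cell type were found in 11.3% and 4.61% of cycling cells, against 1.27% and 1.71% of resting cells. The part of doublets in the difference of UMIs was not tested. The sums tested below rest on 12680260 and 2981029 UMIs of cycling and 2402536 and 1072035 UMIs of resting pre-B cells. A fold change below compares shares of all UMIs, after TMM scaling, unless it is named as per cell.

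In the test of cycling against resting pre-B cells, the quasi-likelihood test of edgeR (p-values adjusted by Benjamini-Hochberg over all genes tested, threshold 0.05) called 1275 of 9614 genes higher (13.3%) and 754 lower (7.84%). With the library as a replicate block, which the shared origin of the sums allows, 2423 (25.2%) were higher and 2113 (22%) lower, and all 2029 genes of the unblocked fit were among them in the same direction. A gene that was not called may still differ.

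The genes of S phase and of G2 and mitosis move with the gate, and their counts describe what the gate collected. Of 42 S phase genes tested, 41 were higher and none lower (median log2 fold change 3.70), and of 52 genes of G2 and mitosis 51 were higher (median 3.99), against 13.3% of all genes tested and a median of -0.0035. Rrm2, a subunit of the ribonucleotide reductase, had 475 and 629 CPM in cycling against 7.49 and 6.53 CPM in resting cells. Pcna, the sliding clamp of the polymerases, had 576 and 614 against 57.9 and 88.6 CPM. Both genes were several times higher in each library. Birc5 (survivin) stood at 491 and 657 against 7.49 and 21.5 CPM, and Ube2c, an ubiquitin-conjugating enzyme of the anaphase-promoting complex, at 523 and 699 against 17.9 and 16.8 CPM. Hmgb2, a chromatin protein that bends DNA, was the member with the most UMIs, at 5167 and 6265 against 459 and 708 CPM. None of these groups overlapped. Of 15 histone genes of the replication-dependent clusters 12 were higher. The linker histone Hist1h1b had 1456 and 1463 against 49.1 and 60.6 CPM. Reads of near-identical histone copies, which mostly lack a poly(A) tail, may be shared or lost.

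Promoters of these genes are known to carry the CHR element and the CCAAT box (G2 and mitosis) or E2F sites (S phase). Upstream sequence from RefSeq (GRCm38.p6) is shown for 3 genes with such letters, picked because they have them. Capitals mark TTTGAA and CCAAT on either strand, and the E2F letters TTTGGCGC or TTTCGCGC on either strand, in all 3 genes. TTTGAA and CCAAT were found in Cdk1 (the mitotic kinase, chr10:69352939-69353032, minus strand) and Cdc20 (activator of the anaphase-promoting complex, chr4:118437353-118437463, minus strand), and 2 CCAAT and 3 E2F matches, of which a pair overlaps, in Mcm6 (a subunit of the replicative helicase, chr1:128359706-128359825, minus strand). Each is printed 5′ to 3′ on the gene's strand and ends before the annotated start.
Cdk1: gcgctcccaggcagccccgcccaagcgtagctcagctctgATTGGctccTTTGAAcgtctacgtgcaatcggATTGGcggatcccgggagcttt
Cdc20: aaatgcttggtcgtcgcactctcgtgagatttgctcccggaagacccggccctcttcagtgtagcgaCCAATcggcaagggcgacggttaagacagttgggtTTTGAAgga
Mcm6: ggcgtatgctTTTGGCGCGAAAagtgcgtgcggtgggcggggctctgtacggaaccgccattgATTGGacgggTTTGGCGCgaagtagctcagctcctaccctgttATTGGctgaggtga

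Within 250 bases before the start, TTTGAA or TTCGAA was found on either strand in 20 of the 45 G2 and mitosis genes with an entry (44.4%), CCAAT in 34 (75.6%), and both in 17 (37.8%). Over all 27025 genes with an entry the shares were 19.6%, 37.5%, and 7.00%. In 31 S phase genes with an entry they were 19.4%, 67.7%, and 12.9%, so CCAAT was frequent in both lists. An E2F match (TTTGGCGC, TTTCGCGC, TTTCCCGC, or TTTGCCGC) was found in 10 of 31 S phase genes (32.3%), in 3 of the 45 G2 and mitosis genes (6.67%), and in 2.16% of all genes. A match is a description of letters and not of a bound site. Cdk1 had 258 and 373 CPM in cycling and 2.91 and 0.933 CPM in resting cells, the latter from 1 UMI in library 2 (ratio 399.9, 95% counting interval 71.6 to 15809). Cdc20 had 155 and 209.995 against 5.41 and 32.6 CPM, and Mcm6 had 266 and 209 against 22.1 and 43.8 CPM. For all 3 genes each cycling value was above each resting value.

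The 10 genes with the largest fold change among those higher, with at least 50 UMIs in each library, were Hist1h3b, Lrr1, Aunip, Mxd3, Pimreg, Pbk, Nsl1, Mtfr2, Rad54b, and Shcbp1. Of these, 8 were at 0 UMIs in both resting sums, where only a bound against a floor of 3 UMIs per library can be given. Lrr1, which targets the replicative helicase for unloading, was at least 32.3-fold higher in library 1 and at least 28.1-fold in library 2. Aunip, a partner of Aurora kinase A, was at least 35.9-fold and 19.8-fold higher. Shcbp1, a protein of the midbody, was at least 60.4-fold higher in library 1 and 142-fold (25.3 to 5625) in library 2, where the resting cells had 1 UMI. These genes also follow the gate.

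Genes of nucleotide synthesis, which supply division and are not gate genes themselves, were higher as well. Of 25 genes of nucleotide synthesis 22 were higher and none lower, with a median log2 fold change of 2.56, beside 13.3% of all genes called higher. Dut, which removes dUTP, stood at 745 and 918 CPM in cycling against 32.0 and 58.8 CPM in resting cells (log2 fold change 4.39 ± 0.34 SE, adjusted p 0.00019), and Tyms, which makes thymidylate, at 175 and 235 against 11.2 and 5.60 CPM (4.68 ± 0.45, adjusted p 0.000307). Paics of purine synthesis had 184 and 239 against 32.5 and 49.4 CPM (2.56 ± 0.33, adjusted p 0.00122), and Nme1, which hands phosphate between nucleotides, 487 and 491 against 110 and 184 CPM (1.92 ± 0.29, adjusted p 0.0027). Every cycling value of these 4 genes exceeded every resting value. Several of the list (Rrm2, Tyms, Dut) are themselves S phase genes, which move with the gate. The count and values of this list therefore also describe what the gate collected.

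Ribosome biogenesis, ribosomal proteins, and energy metabolism were higher in part. Of 19 ribosome biogenesis genes tested 10 were higher and none lower (median 1.19). Npm1, a nucleolar chaperone, had 2679 and 2819.5 against 1088 and 1047 CPM (1.53 ± 0.17, adjusted p 0.000483), and Ncl, nucleolin, had 1130.3 and 927 against 423 and 342 CPM (1.58 ± 0.28, adjusted p 0.00526). Of 35 cytosolic ribosomal protein genes 11 were higher and none lower (median 0.53), and with the replicate block 28 were higher, beside 13.3% of all genes and 25.2% with the block. Rps2 had the clearest change among those named here, with 5320 and 4974 against 1674 and 1982 CPM (1.66 ± 0.18, adjusted p 0.000432), while Rps24, with 5635 and 6008 against 5838 and 5946 CPM, did not pass. Members of this list thus moved by unequal amounts.

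Of 15 glycolysis genes tested 8 were higher and none lower (median 1.04). Gapdh had 1095 and 987 CPM in cycling against 303 and 257 CPM in resting cells (2.06 ± 0.20, adjusted p 0.000307). Ldha, lactate dehydrogenase A, had 354 and 457 against 82.8 and 133 CPM (2.09 ± 0.27, adjusted p 0.00122). Slc2a1, the main glucose carrier, had 9.94 and 14.4 against 10.4 and 10.3 CPM and did not pass. Of 27 nuclear genes of oxidative phosphorylation 8 were higher and none lower (median 0.71), and with the block 22 were higher (25.2% of all genes). Ndufa4, a subunit of cytochrome c oxidase, had 718 and 803 against 206 and 316 CPM (1.72 ± 0.28, adjusted p 0.00367), and Cox5a had 661 and 709 against 290 and 322 CPM (1.33 ± 0.18, adjusted p 0.00147). In both metabolic lists every called member was higher, beside 13.3% of all genes called higher and 7.84% lower. Of 8 amino acid and iron carriers 2 were higher and none lower (4 and 3 with the block), Tfrc (transferrin receptor, 1.61 ± 0.44, adjusted p 0.0314) and Slc7a1 (cationic amino acids, 1.97 ± 0.46, adjusted p 0.0183). Tfrc and Slc7a1 each lost their call in 3 of the 4 fits that left out 1 sum.

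**Figure D2:**
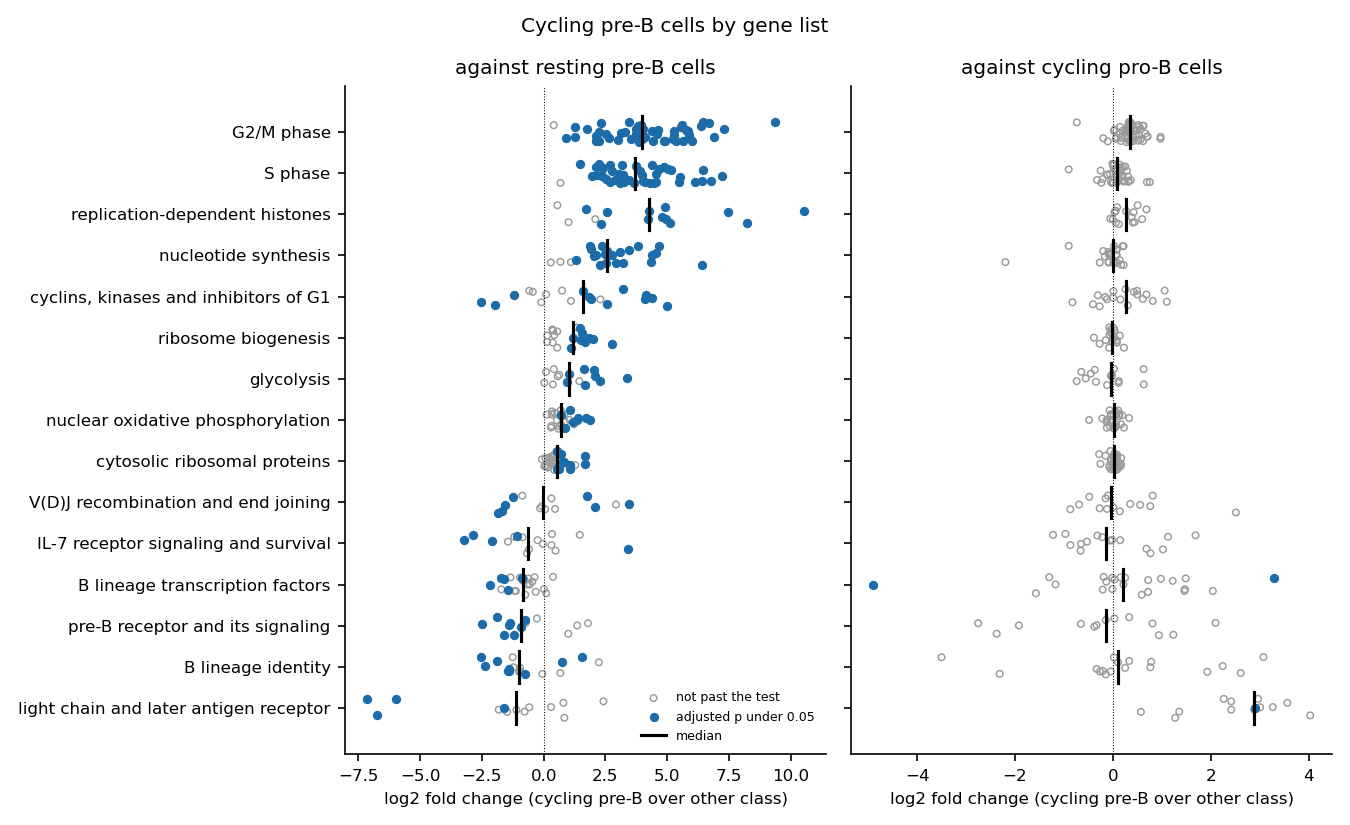
Log2 fold change of each tested member of 15 gene lists in cycling pre-B cells against resting pre-B cells (left) and cycling pro-B cells (right), with filled points for genes past the test, open points for the others, and black bars for list medians. S phase and G2 and mitosis genes follow the gate, with 41 of 42 and 51 of 52 higher on the left and 0 called on the right.

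Among the genes that set entry into S phase, 9 of 19 were higher and 3 lower, beside 13.3% and 7.84% of all genes. These genes can also move with the gate on Mki67 and Top2a, so their values describe what the gate collected. Ccnd3, the D-type cyclin known to be required for pre-B expansion, stood at 441 and 343 CPM in cycling against 140 and 149 CPM in resting cells (1.61 ± 0.24, adjusted p 0.00256). Its partner Cdk4 stood at 294 and 363 against 90.7 and 115 CPM (1.85 ± 0.24, adjusted p 0.00125), and Cdk6 at 125 and 68.4 against 21.2 and 14.9 CPM (2.55 ± 0.49, adjusted p 0.00784). Cycling values were higher throughout. E2f1 (4.14 ± 0.36, adjusted p 0.000231) and the cyclin E genes Ccne1 (5.00 ± 0.64, adjusted p 0.000894) and Ccne2 (4.39 ± 0.59, adjusted p 0.00122) were higher too. So was Cdkn2c, an inhibitor of Cdk4 and Cdk6 that is itself an E2F target, at 62.6 and 84.9 against 2.91 and 7.46 CPM (4.11 ± 0.45, adjusted p 0.000513). The 3 genes that were lower all restrain division: Btg1 had 399 and 488 against 2665 and 3178 CPM (-2.55 ± 0.23, adjusted p 0.000265, per cell -0.61), Btg2 had 239.7 and 226 against 1246 and 809 CPM (-1.99 ± 0.31, adjusted p 0.00283, per cell 0.0044), and Cdkn1b (p27) had 110 and 121 against 318 and 276 CPM (-1.20 ± 0.24, adjusted p 0.00956, but 0.76 above 0 per cell). Cdk6 lost its call in 1 and Cdkn1b in 3 of the 4 fits that left out 1 sum.

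Of 17 genes of B-lineage identity 7 took a smaller and 2 a larger share of the RNA in cycling cells, and 8 did not pass (median -0.997, per cell 0.92), beside 7.84% and 13.3% of all genes. With the replicate block 11 were lower and 3 higher, beside 22% and 25.2% of all genes. Ebf1, the transcription factor that specifies the lineage (chr11:44617317-45008091, plus strand), had 1250.2 and 1556 CPM in cycling against 4329.6 and 4357 CPM in resting cells (-1.46 ± 0.23, adjusted p 0.00282, but 0.48 above 0 per cell). Cd79b, the immunoglobulin beta chain (chr11:106311341-106314762, minus strand), had 560.2 and 897 against 2466 and 3709.8 CPM (-1.91 ± 0.34, adjusted p 0.00538, per cell -0.0047). Both genes were lower in each library with no overlap. As UMIs per cell, Ebf1 had a mean of 21.4 and 21.4 in cycling against 14.7 and 16.0 in resting cells, and Cd79b had 9.59 and 12.3 against 8.36 and 13.6. On the scale of UMIs per cell the median of all tested genes shifted by 1.96 (log2), and the median of the identity list by about as much, from -0.997 to 0.92, so the list stood about as far below the median gene on either scale.

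Below 0 as a share and above 0 per cell were also Blnk, the adaptor below the receptor (-1.39 ± 0.30, adjusted p 0.0139, per cell 0.52) and Vpreb3 (-0.77 ± 0.23, adjusted p 0.046, per cell 1.18). Both stayed below the shift of 1.96 of the median gene on that scale. The 2 identity genes that were higher were Cd24a (0.74 ± 0.22, adjusted p 0.0447, per cell 2.67) and Spn, which encodes CD43 and marks early B cells (1.55 ± 0.35, adjusted p 0.0152, per cell 3.55). Cd2 and Il2ra (CD25), surface markers of the small pre-B cell, remained below 0 on both scales. Cd2 had 29.2 and 61.7 against 226 and 366 CPM (-2.53 ± 0.65, adjusted p 0.0257, per cell -0.65), and Il2ra had 8.75 and 11.1 against 63.7 and 48.5 CPM (-2.36 ± 0.53, adjusted p 0.0144, per cell -0.39). Of these genes, Vpreb3 lost its call in all 4 fits that left out 1 sum. Blnk, Cd24a, Spn, Cd2, and Il2ra each lost theirs in 3 of the 4.

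**Figure D3:**
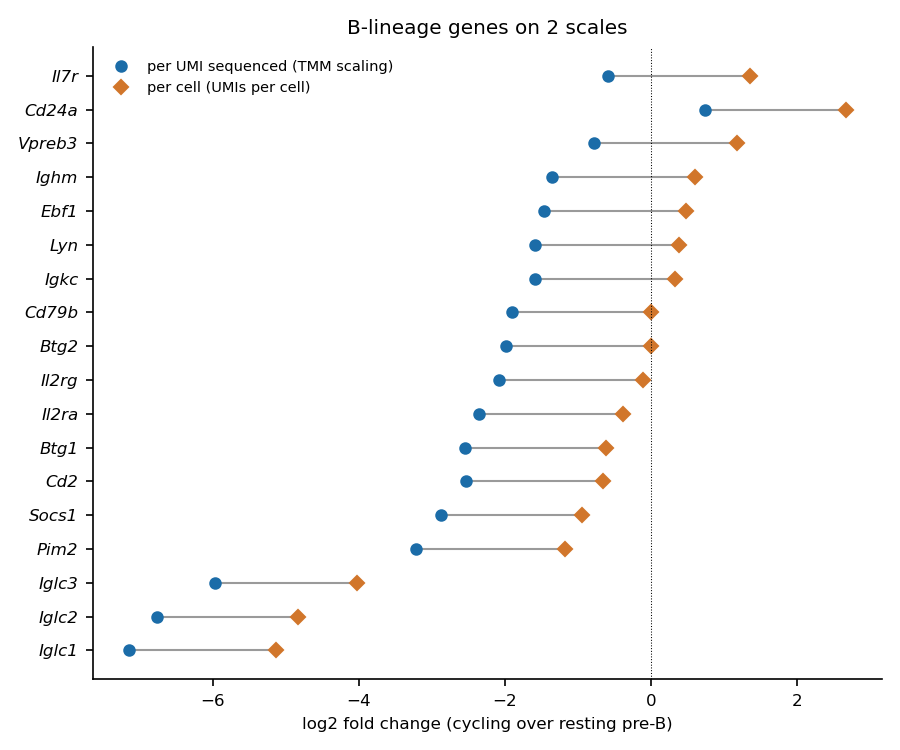
Log2 fold change of 18 genes in cycling over resting pre-B cells per UMI sequenced (circles) and as UMIs per cell (diamonds). All tested genes shift up by a median of 1.96 between the scales. Ebf1 moves from -1.46 to 0.48, while Iglc1, Iglc2, Iglc3, Socs1, and Pim2 stay below 0 on both.

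Of 13 genes of the pre-B receptor and its signaling 8 were lower and none higher (median -0.92, with the block 9 lower and 3 higher), and per cell the median was 1.01. Of all genes 7.84% were lower and 13.3% higher, and 22% and 25.2% with the block. Without cells with at least 10 UMIs of 1 other cell type, 8 of the list were lower and 2 higher. Of the 9183 genes tested there, 888 were lower and 1269 higher. Ighm, the mu heavy chain, had 1580.5 and 1706 CPM in cycling against 4904 and 4529.7 CPM in resting cells (-1.36 ± 0.17, adjusted p 0.000993). The kinase Lyn had 104 and 104 against 382 and 318 CPM (-1.59 ± 0.23, adjusted p 0.00191), and Syk had 136 and 138 against 405 and 298 CPM (-1.20 ± 0.27, adjusted p 0.0143). All 3 were above 0 per cell (0.60, 0.38, and 0.78). Syk lost its call in 3 of the 4 fits that left out 1 sum.

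The surrogate light chain genes had the opposite sign. Igll1, which encodes lambda 5 (chr16:16860671-16863985, minus strand), had 138 and 292 CPM in cycling against 29.6 and 166 CPM in resting cells (1.36 ± 0.72). Vpreb1 (chr16:16868403-16870843, minus strand) had 197 and 236 against 67.8 and 181 CPM (1.00 ± 0.38). The cycling value was the higher one within each library, but library 2 of the resting cells lay above library 1 of the cycling cells for Igll1. Neither gene passed the test (adjusted p 0.217 and 0.0944), and both passed with the replicate block (adjusted p 0.00127 and 0.00475). A UMI of Igll1 was found in 36.2% and 35.9% of cycling pre-B cells and in 13.9% and 18.3% after thinning each cell to 2000 UMIs, against 0 and 0.163% of thinned stromal cells. Reads of Vpreb1 and its close copy Vpreb2 may be confused.

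Light chain genes differed by locus. Of 13 genes of the light chains and later antigen receptor 4 were lower and none higher (median -1.10, per cell 0.77), beside 7.84% and 13.3% of all genes, and with the block 6 were lower and 1 higher, beside 22% and 25.2%. Igkc, the kappa constant region (chr6:70726435-70726966, plus strand), had 1199 and 1862 CPM in cycling against 4604 and 5763 CPM in resting cells (-1.59 ± 0.30, adjusted p 0.00748), which is 0.33 above 0 per cell. Without replicate 1 of the cycling cells its adjusted p was 0.0571. A UMI of Igkc was present in 95.01% and 94.9% of cycling pre-B cells, and in 80.4% and 84.0% after thinning to 2000 UMIs, against 17.7% and 2.94% of stromal cells and 2.46% and 0.654% of thinned ones. Counts at the 3′ end cannot tell a rearranged kappa transcript from a germline one. Kappa variable genes together had 23.3 and 62.4 CPM in cycling against 98.2 and 189 CPM in resting cells, but 0.399 and 0.857 UMIs per cell in cycling against 0.333 and 0.695 in resting cells.

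The lambda constant genes Iglc1 (chr16:19061618-19062071, minus strand), Iglc2 (chr16:19198396-19200351, minus strand), and Iglc3 (chr16:19065230-19065681, minus strand) gave the largest decreases of all called genes with at least 50 UMIs in each resting sum. Iglc1 had 5.28 and 0.671 against 365 and 753 CPM (-7.15 ± 1.11, adjusted p 0.00177), the 0.671 CPM resting on 2 UMIs. Iglc2 had 3.94 and 4.03 against 273 and 719 CPM (-6.76 ± 0.85, adjusted p 0.000646). Iglc3 had 3.71 and 6.37 against 338 and 345 CPM (-5.97 ± 0.62, adjusted p 0.000321). Every cycling value was below every resting value, also per cell (-5.13, -4.83, and -4.02).

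Rag1 was asked for in resting and not in cycling cells, so its 41.9 and 49.6 CPM in cycling against 701 and 624 CPM in resting cells are a description. Rag1 was not used to choose pro-B cells, which had 110 and 115 CPM when cycling and 455 and 336 CPM when resting. A Rag1 UMI was still seen in 34.5% and 37.8% of cycling pre-B cells, against 0.806% of stromal cells in library 1 and 0 of 647 in library 2 (exact binomial 95% upper limit 0.569%). Among 14 genes of recombination and end joining 3 were higher and 4 lower, beside 13.3% and 7.84% of all genes. Rag2 had 19.8 and 28.8 against 64.1 and 64.4 CPM (-1.25 ± 0.33, adjusted p 0.0295, but 0.69 above 0 per cell). Against resting cells chosen without the Rag1 condition, but with at least 2 UMIs of Cd79a, the log2 fold change was -0.88 with an adjusted p of 0.0959. Rag2 lost its call in all 4 fits that left out 1 sum. Xrcc6, which encodes Ku70, had 202 and 240 against 731 and 896 CPM (-1.71 ± 0.26, adjusted p 0.00232, but 0.23 above 0 per cell), while Xrcc5, which encodes its partner Ku80, was higher at 15.5 and 10.7 against 2.91 and 6.53 CPM (1.76 ± 0.48, adjusted p 0.0313). The call of Xrcc5 was lost in 3 of the 4 fits that left out 1 sum. The other 2 lower genes were Polm, a gap-filling polymerase (-1.86 ± 0.45, adjusted p 0.0208, per cell 0.12), and Dclre1c, the Artemis nuclease (-1.57 ± 0.37, adjusted p 0.0186, per cell 0.42). Polm and Dclre1c each lost their call in 3 of the 4 fits that left out 1 sum. The other 2 higher genes were Hmgb1 and Hmgb2, which are abundant chromatin proteins of dividing cells.

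Il7r had 218 and 301 CPM in cycling against 454 and 422 CPM in resting cells (-0.59 ± 0.29, adjusted p 0.179), and per cell it was 1.35 above 0, below the shift of 1.96 of the median gene on that scale. Of 16 genes of interleukin-7 signaling and survival tested 1 was higher (13.3% of all genes) and 4 lower (7.84% of all genes), and with the block 1 (25.2%) and 7 (22%). Il2rg, the common gamma chain, had 14.9 and 14.8 against 71.2 and 70.0 CPM (-2.08 ± 0.26, adjusted p 0.000992). Socs1, a feedback inhibitor of cytokine signaling, had 17.1 and 28.2 against 187 and 182 CPM (-2.88 ± 0.32, adjusted p 0.000567), and the survival kinase Pim2 had 6.39 and 4.03 against 72.8 and 37.3 CPM (-3.22 ± 0.51, adjusted p 0.0032). Mcl1, an inhibitor of cell death, had 161 and 178 against 383 and 430.02 CPM (-1.09 ± 0.21, adjusted p 0.00739, but 0.86 above 0 per cell). Groups did not overlap for any of these 4 genes. Myc was the gene that was higher, with 7.41 and 23.1 against 0.832 and 2.80 CPM (3.40 ± 1.00, adjusted p 0.0412), from 2 and 3 UMIs in the resting sums. Mcl1 lost its call in 1 and Myc in 3 of the 4 fits that left out 1 sum.

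Of 23 transcription factors of the lineage 5 were lower and none higher (median -0.83, per cell 1.16), and 18 were lower with the replicate block, beside 7.84% of all genes and 22% with the block. Ikzf3 (Aiolos), which restrains the pre-B receptor's own genes, had 32.1 and 51.3 against 146 and 167 CPM (-1.75 ± 0.30, adjusted p 0.00473, but 0.18 above 0 per cell). Foxo1, an activator of the Rag genes, had 73.8 and 62.4 against 264 and 199 CPM (-1.61 ± 0.36, adjusted p 0.0147, per cell 0.39), and Ets1 had 146 and 155 against 344 and 274 CPM (-0.88 ± 0.22, adjusted p 0.0236, per cell 1.09). The values of the 3 genes did not overlap between the classes. Foxo1 and Ets1 each lost their call in 3 of the 4 fits that left out 1 sum. Id3, which holds E proteins in check, had 772 and 1427 against 918 and 1566 CPM and did not pass on either fit. Of 14 trafficking genes 1 was lower, beside 7.84% of all genes, namely S1pr1, the receptor for egress into blood, with 20.98 and 31.9 against 185 and 134 CPM (-2.45 ± 0.37, adjusted p 0.00237).

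The 10 genes with the largest decreases were the 3 lambda genes and BE692007, Gm8369, Col5a3, Tmem163, Fcmr, Kdm5b, and Ly6d. Ly6d, a marker of B-lineage commitment, had 141 and 217 CPM in cycling against 1446 and 2012 CPM in resting cells (-3.10 ± 0.45, adjusted p 0.0021). Fcmr, the receptor for IgM, had 4.34 and 3.35 against 53.7 and 50.4 CPM (-3.55 ± 0.49, adjusted p 0.00146). Kdm5b, a histone H3 lysine demethylase, had 10.3 and 3.69 against 81.6 and 67.2 CPM (-3.18 ± 0.47, adjusted p 0.00229). None of these values overlapped between classes. The log2 fold changes of the other 4 lay between -4.40 for BE692007 and -3.88 for Tmem163, and BE692007 did not pass without replicate 2 of the cycling cells (adjusted p 0.0602).

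Against cycling pro-B cells, which divide as well, far fewer genes were called. The same test called 14 of 9614 genes higher (0.146%) and 22 lower (0.229%), and with the replicate block 238 (2.48%) and 215 (2.24%). The cycling pre-B sums are the same as in the comparison above. The 2 classes were set apart by Dntt, so genes that go with Dntt can move with that gate. Cycling pro-B cells were also deeper, with a median of 17019 and 13251 UMIs against 10636 and 9560. Depth, stage, and this gate cannot be told apart here. None of the 42 S phase genes, the 52 genes of G2 and mitosis, the 25 of nucleotide synthesis, the 15 of glycolysis, or the 35 ribosomal protein genes was called. With the replicate block 1 of these was lower, Impdh1 of purine synthesis, at 24.1 and 20.1 against 88.2 and 128 CPM (adjusted p 0.0877, blocked 0.00271). Over all genes 721 had an unadjusted p under 0.05, and DESeq2 called 47 higher and 63 lower. Hmgb2 had 5167 and 6265 CPM in cycling pre-B and 4294 and 5149 CPM in cycling pro-B cells, and Ccnd3 had 441 and 343 against 404 and 417 CPM. A lack of calls does not show that these genes were alike. When the fit held only these 2 classes, no gene passed, although 674 had an unadjusted p under 0.05.

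Igkc and Ikzf3 were the members of the gene lists that were higher in cycling pre-B cells. Igkc had 1199 and 1862 CPM against 220 and 214 CPM in cycling pro-B cells (2.90 ± 0.32, adjusted p 0.0127), and 32.9% and 19.2% of the pro-B cells had a UMI of it. Ikzf3 had 32.1 and 51.3 against 5.00 and 3.41 CPM (3.30 ± 0.35, adjusted p 0.0114). Both genes were higher in each library with no overlap. The others of the 10 with the largest increases were Gm30211, Fcrla (an Fc receptor-like protein of B cells, 2.75 ± 0.42, adjusted p 0.0371), Cd38 (2.70 ± 0.37, adjusted p 0.0313), Id2, Cldn10, Emid1, Dok3 (an adaptor that dampens receptor signaling, 1.74 ± 0.24, adjusted p 0.0313), and Cnp. Gm30211 (chr6:70719074-70740554, plus strand) spans Igkc on the same strand, so these 2 may not be separate increases. Igkc and Ikzf3 each lost their call in 2 of the 4 fits that left out 1 sum, and the others of the 10 in all 4.

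Erg was the 1 member of the gene lists that was lower. Erg, a transcription factor of stem and early progenitor cells, had 1.81 and 1.34 CPM in cycling pre-B against 41.7 and 65.6 CPM in cycling pro-B cells (-4.90 ± 0.36, adjusted p 0.000872), and Arpp21 had 2.997 and 2.68 against 60.0 and 61.3 CPM (-4.30 ± 0.28, adjusted p 0.000239). These 2 passed in each fit that left out 1 sum. Myl10 (-4.79 ± 0.83, adjusted p 0.0361), Bok, a relative of Bcl2 (-3.52 ± 0.50, adjusted p 0.0315), Mfng, a modifier of Notch (-2.32 ± 0.29, adjusted p 0.0205), Egfl7, Ethe1, Bfsp2, Adgrg1, and Gm30948 made up the 10 with the largest decreases. They lost their calls in 2 (Gm30948) to 4 of these 4 fits.

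The surrogate light chain genes did not pass in the unblocked fit and did with the library as a block. Vpreb1 had 197 and 236 CPM in cycling pre-B against 959 and 1412 CPM in cycling pro-B cells (-2.37 ± 0.39, adjusted p 0.0506, blocked 0.000555). Igll1 had 138 and 292 against 475 and 1247 CPM (-1.92 ± 0.73, adjusted p 0.523, blocked 0.00405), and Vpreb2 had 17.0 and 27.2 against 110 and 204 CPM (-2.75 ± 0.55, adjusted p 0.0892, blocked 0.000372). All 3 were lower in both libraries. The growth factor receptors of progenitors, Kit (-2.31 ± 0.67, adjusted p 0.269, blocked 0.00342) and Flt3 (-3.50 ± 0.83, adjusted p 0.151, blocked 0.00479), and the transcription factor Lef1 (-1.57 ± 0.33, adjusted p 0.104, blocked 0.00119) had the same sign. Above 0 were Ighm (0.81 ± 0.17, adjusted p 0.106, blocked 0.00247), Il7r (1.02 ± 0.29, adjusted p 0.278, blocked 0.0327), Cd2 (3.08 ± 0.73, adjusted p 0.154, blocked 0.00871), the transcription factor Spi1 (1.49 ± 0.28, adjusted p 0.0822, blocked 0.00378), and Cd74, the invariant chain of MHC class II (2.89 ± 0.64, adjusted p 0.128, blocked 0.0162). In all, of 13 genes of the pre-B receptor and its signaling none was called, and 4 were higher and 3 lower with the block. Of 13 genes of the light chains and later antigen receptor 1 was higher, and 6 with the block. Of 23 transcription factors of the lineage 1 was higher and 1 lower, and 8 and 4 with the block. Of all genes 0.146% were higher and 0.229% lower, and 2.48% and 2.24% with the block.

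**Figure D4:**
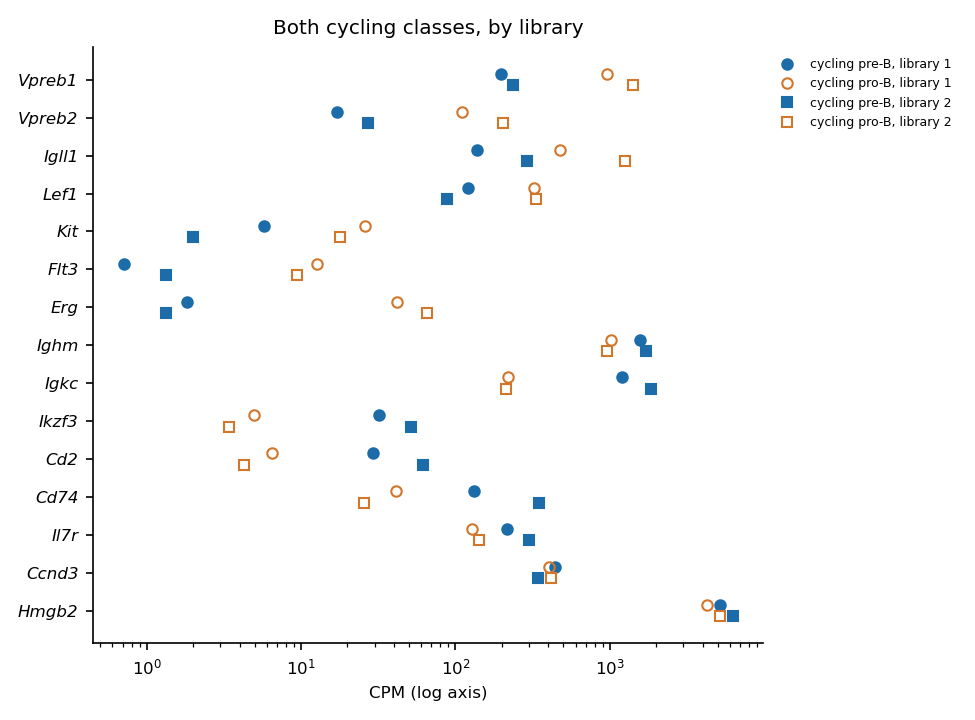
CPM (log axis) of 15 genes in cycling pre-B cells (filled) and cycling pro-B cells (open), with library 1 as circles and library 2 as squares. Vpreb1, Igll1, Lef1, and Erg lie lower and Igkc and Ikzf3 higher in cycling pre-B cells, while Ccnd3 and Hmgb2 lie close together.

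Cycling pre-B cells were split by whether a UMI of the surrogate light chain was detected. A UMI of Igll1 or Vpreb1 was found in 347 cells of library 1 (46.8%, 43.2% to 50.5%) and in 90 cells of library 2 (41.5%, 34.8% to 48.3%). These cells were deeper, with a median of 16660 and 15295 UMIs against 8386 and 8277 in the others, so that depth and stage cannot be told apart in the split itself, and the levels below are a description. Igkc stood at 803 and 1056 CPM with and 1763 and 3049.96 CPM without the surrogate light chain. Rag1 stood at 22.7 and 23.7 against 69.3 and 87.9 CPM, and Cd2 at 14.9 and 32.7 against 49.6 and 105 CPM. Higher in the cells with it were Ccnd3, at 551 and 405 against 285 and 251 CPM, and Lef1, at 169 and 113 against 52.4 and 51.4 CPM. The order was the same in both libraries for these 5 genes. The 2 gate genes Mki67 and Top2a were somewhat lower in the cells with it, at 632 and 336 against 797 and 582 CPM and at 955 and 546 against 1023 and 927 CPM.

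Transcripts of other cell types were present in the sums and unequal between libraries. Of 741 cycling pre-B cells of library 1, 84 (11.3%) had at least 10 UMIs from 1 list of markers of another cell type, against 10 of 217 (4.61%) in library 2, and 9 and 5 resting pre-B cells had as many. At least 3 UMIs over all such lists were found in 385 (52.0%) and 45 (20.7%) cycling pre-B cells. In library 1, 61 cells had at least 10 UMIs of erythroid and 21 of neutrophil genes. The 4 erythroid markers (all with a UMI) summed to 4417 and 63 UMIs, led by Car1 with 2826 in library 1 and by Klf1 with 23 in library 2. The 5 neutrophil markers summed to 18891 and 16 UMIs, led by Ngp with 11280 and 12. The 5 stromal markers summed to 3953 and 886 UMIs, led by Col1a1 with 1305 and 263. Endothelial markers summed to 393 and 54 UMIs, with Kdr at 0 in both libraries, monocyte markers to 226 and 111, and T and NK cell markers to 279 and 8, with Cd3e of T cells at 0 in both. Plasmacytoid dendritic cell markers summed to 2142 and 347 UMIs, mostly of Tcf4, which B cells also express, with Siglech at 0 in both libraries, and of their 3 tested genes 1 was higher than in resting cells (13.3% of all genes), the interferon-induced Bst2 (0.83 ± 0.25, adjusted p 0.0425, but 0.121 without the cells with at least 10 UMIs of 1 other type, 0.737 without those with at least 3 of any, and -0.18 on the log2 scale after thinning to 2000 UMIs). Bst2 passed in none of the 4 fits that left out 1 sum (adjusted p up to 0.188). Library 2 of the resting cells held 1504 UMIs of Col1a1.

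None of these 4 erythroid, 5 neutrophil, or 5 stromal genes was called in either comparison. With the replicate block all 4 erythroid and 2 neutrophil genes were higher than in resting pre-B cells, and 3 neutrophil genes were higher than in cycling pro-B cells, beside 25.2% and 2.48% of all genes. The block also called 1 T and NK cell gene higher and 1 endothelial gene lower than in resting cells, and 1 monocyte gene higher than in cycling pro-B cells. Of the 3 plasmacytoid dendritic genes tested, 1 was higher and 1 lower than in resting cells with the block. All 3 were lower than in cycling pro-B cells, beside 2.24% of all genes. Without the cells that had at least 10 such UMIs, a choice made after seeing the data, 1269 genes were higher and 888 lower than in resting pre-B cells, and 30 and 75 against cycling pro-B cells. Of the 84 genes called against resting cells for which a fold change was examined here all but Bst2 remained called in the same direction, and so did the 20 called against cycling pro-B cells. Without cells with at least 3 UMIs over all these lists, 11 of the 84 calls (Atp5b, Bst2, Cd24a, Dclre1c, Ets1, Myc, Polm, Spn, Syk, Vpreb3, and Xrcc5, adjusted p 0.0507 for Dclre1c to 0.737 for Bst2) and 1 of the 20 (Cldn10, adjusted p 0.121) were lost, and none changed sign. The part of doublets and free RNA in the other calls was not tested.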

How the data were processed

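UMI counts per gene and cell barcode were deposited as 1 raw count matrix for each of 2 libraries (10x Genomics Chromium 3′ v3.1), which the authors made with Cell Ranger 6.1.2 on mm10, per the submitters' processing notes. The study's methods name only the human genome for their single-cell data, and settings beyond defaults are not given in the sources used here. The matrices hold 32288 features (32285 genes and 3 reporters) and 9932 and 3659 barcodes, with 100808649 and 33306452 UMIs.

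Barcodes with under 500 genes, under 500 UMIs, or over 10% mitochondrial UMIs were left out, as in the study's methods. Classes were gated on UMIs of 6 genes, which were not tested. No doublet caller was run, and no cells were clustered. UMIs were summed per library and class for 5 B-lineage classes, and genes were tested on the sums with edgeR 4.0.16 (quasi-likelihood test, TMM, filterByExpr, residual spread shared by all classes) in R 4.3.3, with Benjamini-Hochberg adjustment over 9614 genes and a threshold of 0.05. Same-numbered sums come from the same library and deviated together (correlation of deviations 0.49 to 0.73 over 5872 genes), so the library as a block was the paired alternative. DESeq2 1.42.0 was another. Levels are CPM of all UMIs of a sum, with exact Poisson intervals that cover counting error only.

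Named genes were gate and marker genes, members of 24 gene lists (by UMIs, or needed as background), and per comparison the 10 largest changes each way among genes past the threshold, changed alike in both libraries, with at least 50 UMIs in the higher class of each library. The cells, the lists, and the genes were chosen with earlier results of these data known. The procedure was tested on simulated data, with 5 sets per comparison. Each simulated sum was drawn independently, with 1 spread for all genes (dispersion 0.109). Fewer genes were changed than were called against resting pre-B cells. The procedure found 59.5% (against resting pre-B cells) and 59.2% (against cycling pro-B cells) of changes of log2 2. Of changes of log2 1 it found 4.41% and 5%. False calls made up 4.78% and 5.31% of calls. Real sums of the same library deviated together, which the simulation left out, so these rates may not hold for the real data. Positions are from GENCODE M21 (32158 identifiers matched) and promoters from RefSeq, both GRCm38. The human libraries of the study were not analysed here. Aldoa, listed under more than 1 identifier, was left out. Some items are not reported here, and the gene lists, the marker check, and the background cells were formed without them.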

Additional observations from a re-analysis of the deposited data

Results flagged for a closer look

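UMIs of the red fluorescent reporter tdTomato, a feature outside the mouse genome that no comparison used, were found in cycling pre-B cells of both libraries although the mice are labelled wild type. There were 160 UMIs in library 1 (12.6 CPM) and 74 in library 2 (24.8 CPM), each above the limit that a count of 0 allows. Resting pre-B cells had 43.7 and 53.2 CPM and cycling pro-B cells 9.70 and 17.9 CPM. EGFP and the tdTomato-WPRE feature were at 0 in cycling pre-B cells. The source of these UMIs was not tested.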

How the results depend on the processing

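Against resting pre-B cells, the count of higher and lower genes (1275 and 754) moved to 2423 and 2113 with the replicate block, to 605 and 357 after thinning to 2000 UMIs per cell (6942 genes tested), and to 7571 and 27 as UMIs per cell, a scale chosen after seeing the data. Fitting only the 2 classes compared gave 993 higher and 484 lower, without the calls of Atp5b, Bst2, Cd24a, Ets1, Pkm, Rag2, Vpreb3, and Xrcc5. Resting cells chosen without the Rag1 condition, but with at least 2 UMIs of Cd79a, ended 6 calls (Atp5b, Bst2, Myc, Pkm, Rag2, and Vpreb3). A limit of 5% mitochondrial UMIs also ended 6 (Bst2, Myc, Pkm, Rag2, Vpreb3, and Xrcc5). Leaving out 1 sum at a time gave 548 to 895 higher and 192 to 479 lower. The share of calls that were higher was 62.8%, against 53.4% with the block, which pairs the sums of a library, and 99.6% per cell. Of the 84 called genes with a fold change examined here, 59 passed in all 4 fits that left out 1 sum and none changed sign.

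Against cycling pro-B cells, the 14 higher and 22 lower genes became 47 and 63 with DESeq2, 38 and 59 without the filter on low counts, 238 and 215 with the replicate block, 42 and 82 without cells with at least 3 UMIs of other cell types, 30 and 75 without cells with at least 10 UMIs of 1 other type, 7 and 11 with the legacy fit, 3 and 37 per cell, and 0 and 0 with only the 2 classes. Leaving out 1 sum gave 0 to 4 higher and 4 to 9 lower. The share of calls that were higher was 38.9%, 28.6% without cells with at least 10 UMIs of 1 other type, and 7.50% per cell. With at most 5% mitochondrial UMIs, 6 of the 20 calls with a fold change examined here were lost (Bok, Cldn10, Cnp, Egfl7, Emid1, and Myl10). The causes were not tested.

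As UMIs per cell the log2 fold change against resting pre-B cells turned above 0 for Blnk (0.52), Btg2 (0.0044), Cdkn1b (0.76), Dclre1c (0.42), Ebf1 (0.48), Ets1 (1.09), Foxo1 (0.39), Ighm (0.60), Igkc (0.33), Ikzf3 (0.18), Il7r (1.35), Lyn (0.38), Mcl1 (0.86), Polm (0.12), Ptprc (0.79), Rag2 (0.69), Syk (0.78), Vpreb3 (1.18), and Xrcc6 (0.23). Each of these stayed below the shift of 1.96 of the median gene on that scale. After thinning to 2000 UMIs per cell, Bst2 fell below 0 (-0.18), and 14 more of the 84 calls against resting cells were lost with the same sign (Atp5b, Cd24a, Cdk6, Dclre1c, Ets1, Foxo1, Myc, Pkm, Rag2, Slc7a1, Spn, Syk, Tfrc, and Vpreb3, adjusted p 0.0588 for Slc7a1 to 0.350 for Pkm). Rad54b and Xrcc5 were not among the genes tested there.

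The number of cycling pre-B cells, library 1, fell from 741 to 632 with at most 5% mitochondrial UMIs, to 356 without cells with at least 3 UMIs of other cell types, and to 657 without those with at least 10 of 1 type. In library 2 it fell from 217 to 189 with at least 4 UMIs of Mki67 and Top2a and to 172 without cells with at least 3 UMIs of other types. With 2 libraries, the spread has few degrees of freedom. UMIs per cell and the gate cannot be told apart.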
